A study of Mus musculus with 35 samples.

Results

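The regions described here are the widest listed stretches of histone H3 trimethylated at lysine 27 (H3K27me3) that are no wider than 5 Mb. They were taken from 5 chromatin immunoprecipitation sequencing (ChIP-seq) libraries of mouse bone marrow macrophages. A listed region belonged if it was wider than 100 kb and no wider than 5 Mb, which 5505 of the 19267 regions in the 5 H3K27me3 lists were. Joined within and across the lists where they overlapped by at least 1 bp, they gave 811 blocks. The blocks were chosen by the width of regions in these same lists, so numbers, widths and sharing of the blocks are given as a description without a test, and only marks and proteins from other lists were tested.

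All cells were wild type C57BL/6 macrophages grown in culture from the marrow of female mice aged 8 to 12 weeks, either left unstimulated or given lipopolysaccharide (LPS), a bacterial outer membrane component that macrophages sense through Toll-like receptor 4. H3K27me3 had 1 library each at 0 min (unstimulated), 120 min, 240 min and 480 min of LPS, and a further LPS library whose label says 480 min and whose title says 60 min with a 7 h delay, called the delay library here. Acetylated histone H4 (H4ac) had 2 libraries each at 0, 60, 120 and 240 min, lettered A and B. RNA polymerase II (Pol II) was profiled in a single unstimulated library and in LPS libraries at 60 min (2), 120 min (1), 240 min (2) and 360 min (1). The NF-κB subunit p50 had 4 LPS and 3 unstimulated libraries, p65 had 4 LPS and 1 unstimulated library, and ATF3 had 3 LPS libraries at 240 min. The labels do not say whether libraries of a group represent different animals or cultures. The p-values therefore reflect library-to-library spread alone, and this may be technical. No annotation of the mm9 genome build was used, so genes, macrophage markers among them, were not placed in or near the blocks, and the cell type was not checked here.

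H3K27me3 is laid down by the EZH1 or EZH2 subunit of Polycomb repressive complex 2 and marks genes that are kept silent, such as developmental regulators outside their tissue. It can spread over large domains, and in female cells it coats the inactive X chromosome. H4 acetylation is found at active promoters and enhancers, and Pol II marks genes that are paused or being transcribed.

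The number of regions over 100 kb ranged from 1018 to 1170 per list. There were 1159 in the unstimulated list, 1018 each in the 120 min and 240 min lists, 1170 in the 480 min list and 1140 in the delay list. The base pairs that they covered were 459.6 Mb in unstimulated cells, 474.2 Mb at 120 min, 452.8 Mb at 240 min, 441.1 Mb at 480 min and 402.8 Mb in the delay library. The delay library thus covered the least and the 120 min library the most, with 1 library at each time and no replicate to judge either difference. The median region was 224.9 kb wide in unstimulated cells, 271.7 kb at 120 min, 257.9 kb at 240 min, 221.2 kb at 480 min and 204.7 kb in the delay library. At the lower limit, the narrowest region taken in a list was 100.02 to 100.18 kb wide and the widest left out was 99.59 to 99.97 kb. At the upper limit, the widest region taken was 4.53 to 4.87 Mb and the narrowest left out 5.05 to 5.55 Mb.

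**Figure D1:**
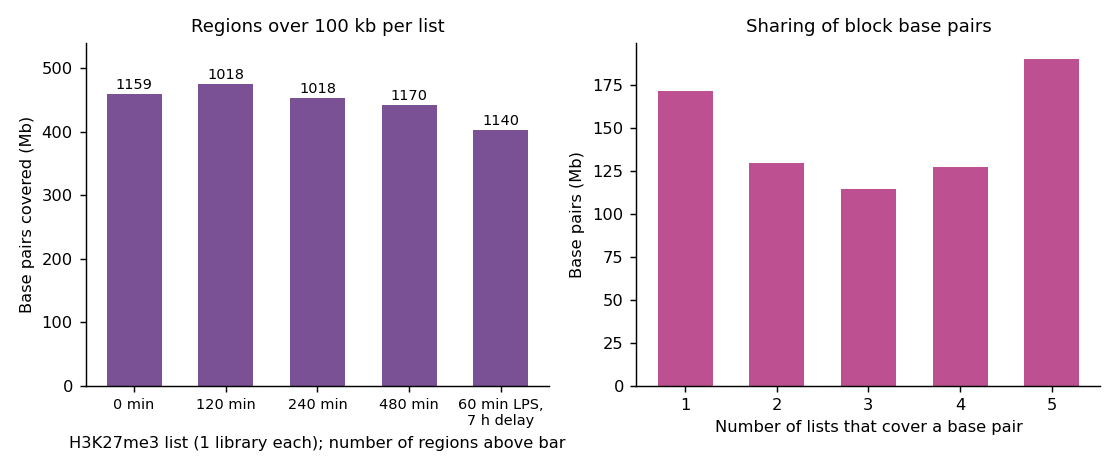
Left, bars give the Mb covered by H3K27me3 regions over 100 kb and up to 5 Mb in each list, 1 library per bar, with the number of regions above each bar. Right, bars give the Mb of the joined blocks that exactly 1 to 5 lists cover. The lists cover 402.8 to 474.2 Mb, and the base pairs covered by all 5 lists are the largest single class, at 189.8 Mb.

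Together the 811 blocks covered 732.0 Mb, or 27.7% of the 2640.6 Mb up to the last listed position of each chromosome. The median block was 422.3 kb wide, and the widest reached 9.97 Mb because regions chained across lists. Joining took 7 blocks past 5 Mb. A single region made up 113 blocks, and the largest number in 1 block was 76. Blocks of 1 Mb and wider numbered 237 and held 539.1 Mb of the total.

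All 5 lists held 422 blocks (52.0%), against 32.4% of the 3294 joined H3K27me3 regions of up to 100 kb. These 422 blocks had a median width of 865.5 kb, whereas the 113 blocks held by 1 list had a median of 151.2 kb. Width and the number of lists thus moved together, so sharing was also counted over base pairs. At least 1 list covered 732.0 Mb, at least 2 covered 560.7 Mb, at least 3 covered 431.2 Mb, at least 4 covered 316.9 Mb, and all 5 covered 189.8 Mb, which is 25.9% of the blocks.

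A list held a block if 1 of its regions over 100 kb and up to 5 Mb overlapped it. A list that did not hold a block may still have a narrower or wider region there. Most blocks were held by the unstimulated list. It held 624 blocks (76.9%), against 69.9% of the narrower regions. All 4 LPS lists and not the unstimulated one held 11 blocks (1.36%, against 0.334% of the narrower regions), which covered 8.59 Mb. The unstimulated list alone held 16 blocks (1.97%, against 5.89% of the narrower regions), which covered 4.60 Mb. Over base pairs, regions over 100 kb and up to 5 Mb covered 24.5 Mb in all 4 LPS lists and not in the unstimulated list. They covered 39.5 Mb in the unstimulated list only.

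The lists that resembled each other most were those whose titles share a date. The Jaccard index, the shared base pairs of 2 lists over the base pairs of either, was 0.604 for the 480 min and delay libraries, which share 1 date. It was 0.592 for the 120 and 240 min libraries, which share another. The other 8 pairs lay between 0.491 and 0.562, and the 4 of them that set an LPS library against the unstimulated one lay between 0.531 and 0.562. The unstimulated library has a date of its own, so LPS and date cannot be told apart for H3K27me3.

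The X chromosome carried the blocks that the lists shared most. All 5 lists covered 18.5% of it, against 3.36% to 9.93% of each autosome, as the plot by chromosome shows. At least 1 list covered 32.3% of the X, which was within the autosomal range of 23.1% (chromosome 5) to 32.6% (chromosome 7). Of the 26 blocks on the X, 24 were held by all 5 lists, and the median X block was 1689 kb wide. By list, the X was 26.7% covered in unstimulated cells, 28.4% at 120 min, 29.7% at 240 min, 23.7% at 480 min and 24.0% in the delay library, while the autosomes together were 16.8%, 17.3%, 16.3%, 16.3% and 14.7% covered in the same order. The X exceeded the autosomes in each of the 5 lists. The Y chromosome had 1 block, of 183.7 kb, held by the 240 min list alone although the mice were female.

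**Figure D2:**
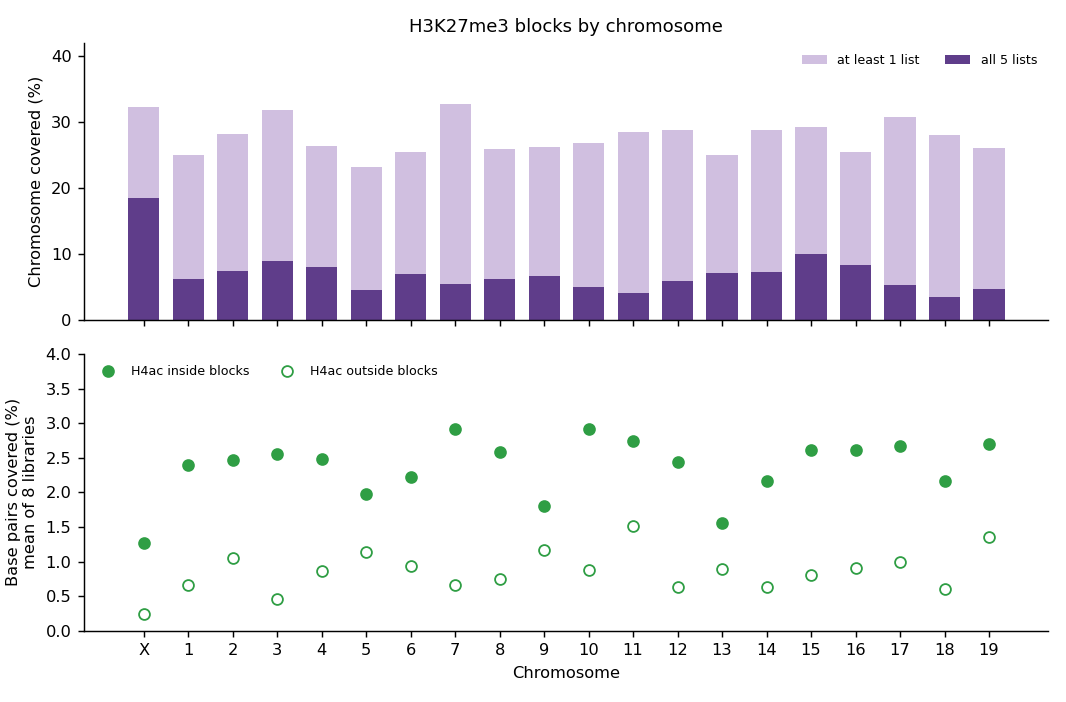
Top, bars give the percentage of each chromosome covered by blocks of at least 1 list (light) and by all 5 lists (dark), with the X first. Bottom, filled circles give the percentage of base pairs in H4ac regions inside blocks and open circles the percentage outside, as means of 8 libraries. The X has 18.5% covered by all 5 lists, and each filled circle lies above its open one.

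H4ac, a mark of active chromatin, covered more of the blocks than of the rest of the genome. Taking H4ac regions up to 10 kb, the share of block base pairs covered was 2.35% ± 0.59 inside and 0.835% ± 0.171 outside (SD, n = 8 libraries), a 2.78-fold difference (geometric mean). By library the ratio of inside to outside was 3.04 and 2.91 in unstimulated cells, 2.86 and 2.78 at 60 min, 2.73 and 2.53 at 120 min, and 2.83 and 2.61 at 240 min, for letters A and B in turn. Inside exceeded outside in 8 of 8 libraries (exact two-sided sign-flip permutation test over libraries, p = 0.0078, the smallest it can give with n = 8). The regions were as wide inside as outside, with medians of 1330 to 1560 bp inside and 1340 to 1580 bp outside, and their number per Mb gave ratios of 2.49 to 2.91.

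Pol II was distributed in the same way. Pol II regions up to 100 kb covered 3.96% ± 1.35 of the base pairs inside blocks and 1.64% ± 0.60 outside (SD, n = 7). The ratio was 2.79 in unstimulated cells, 2.55 and 2.44 at 60 min, 2.23 at 120 min, 2.20 and 2.20 at 240 min and 2.77 at 360 min. It exceeded 1 in 7 of 7 libraries (exact two-sided sign-flip permutation test, p = 0.0156, the smallest it can give). The blocks made up 27.7% of the genome and held 49.2% to 53.9% of the H4ac base pairs and 45.8% to 51.7% of the Pol II base pairs. The comparisons made here comprise 38 permutation tests, alternatives not counted. Each of those with p = 0.0078 or p = 0.0156 has a Benjamini-Hochberg adjusted permutation p of 0.0186, and the adjusted p of any other is given beside it. The regions that made up the blocks scored lower than the narrower ones in each H3K27me3 list. Their median score was 0.357 to 0.441 by list, against 0.598 to 0.687 for regions up to 100 kb. In the better-scored 50% of each H3K27me3 list the inside to outside difference was smaller. On the log2 scale it was 0.88 for H4ac against 1.48 with all regions, and 0.63 for Pol II against 1.29. It passed the same exact tests.

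**Figure D3:**
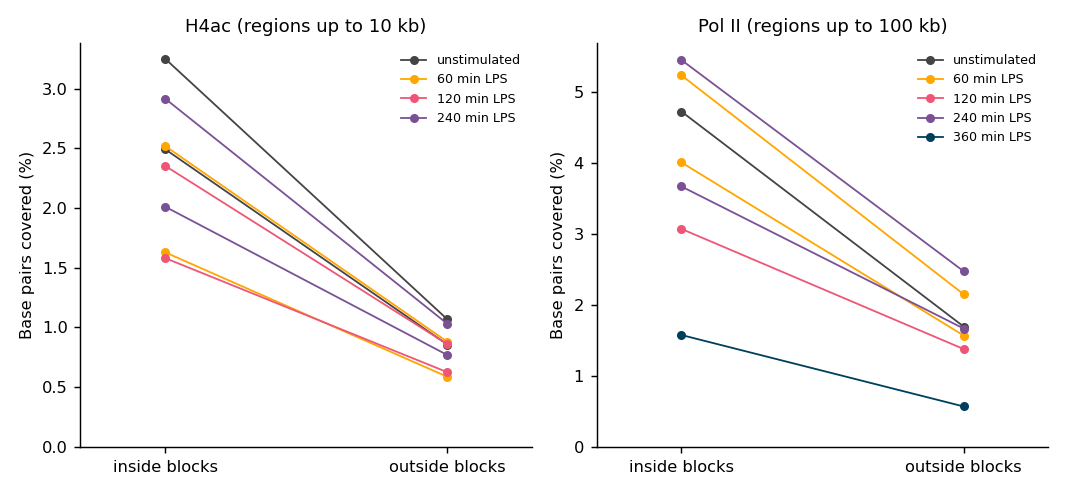
Percentage of base pairs covered by H4ac regions (left) and Pol II regions (right) inside blocks and outside them, with 1 line per library coloured by time. Every line falls from inside to outside, from 1.58% to 3.25% inside against 0.587% to 1.07% outside for H4ac.

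These shares are small in both places, and much of each block had neither mark. Of 100 kb bins with at least 50% of their length in blocks, 34.6% had no H4ac region in any of the 8 lists, against 74.5% of the other bins and 63.4% of all bins. For Pol II, 62.8% of bins in blocks had no region in any of the 7 lists, against 85.7% of the other bins and 79.3% of all bins. Unsequenced gaps and sequence that short reads cannot be placed on count as outside. Starting each chromosome at its first listed position, which drops the gap at its start, left the ratios on the same side of 1.

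The NF-κB subunit p50 also lay in the blocks more often than outside them. Its regions per Mb inside were 0.943, 0.798, 0.844 and 0.217 in the LPS libraries A to D and 0.280, 0.295 and 0.204 in the unstimulated libraries A, C and D. Outside, the values were 0.258, 0.211, 0.254 and 0.0781 in the LPS libraries and 0.0864, 0.0954 and 0.0954 in the unstimulated ones. The ratio ran from 2.13 to 3.78 and exceeded 1 in 7 of 7 libraries (exact two-sided sign-flip permutation test, p = 0.0156). For p65, the NF-κB subunit with a transactivation domain, the ratio was 1.40 to 3.95 in 5 libraries, and for the stress-induced factor ATF3 it was 1.53 to 3.00 in 3 libraries, all above 1. No test was run on those 2 factors. They touched the blocks in few places, since even the longest ATF3 list had 2.56 regions per Mb inside blocks.

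The distribution over a block was uneven, and H4ac and Pol II changed sharply at its edge. In the 10 kb just inside an edge, H4ac covered 1.60% ± 0.34 of the base pairs, against 3.14% ± 0.92 in the 10 kb just outside (SD, n = 8). Over 50 kb, H4ac covered 1.66% ± 0.40 inside and 2.73% ± 0.65 outside, a ratio of 0.609, lower inside in 8 of 8 libraries (exact two-sided sign-flip permutation test, p = 0.0078). Beyond 200 kb outside the blocks, H4ac covered 0.589% ± 0.113. The first 50 kb inside were therefore below the first 50 kb outside but 2.79-fold above the distant genome, also in 8 of 8 libraries (same permutation test, p = 0.0078).

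Pol II had a steeper step at the same edges. It covered 2.37% ± 0.63 of the first 50 kb inside and 5.44% ± 2.11 of the first 50 kb outside (SD, n = 7), a ratio of 0.462, lower inside in 7 of 7 libraries (exact two-sided sign-flip permutation test, p = 0.0156). Beyond 200 kb outside it covered 1.16% ± 0.43. Within 200 kb of the edge, Pol II was highest 40 to 50 kb outside, at 6.28%, and lowest 10 to 20 kb inside, at 2.10%. The ratio of the first 50 kb inside to the first 50 kb outside was 0.366 to 0.742 by library, and the highest value was that of the 360 min library, the list with the fewest Pol II regions. The size of the step depended on the regions counted. On the log2 scale it was -0.72 for H4ac and -1.11 for Pol II as above, -0.55 with Pol II regions up to 10 kb, and -0.18 for H4ac and -0.12 for Pol II with regions of every width.

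Towards the middle of wide blocks both marks returned to near the level of the flanks. More than 200 kb inside an edge, which only blocks over 400 kb have, H4ac covered 2.54% ± 0.64 (SD, n = 8), or 0.926 of its level in the first 50 kb outside, lower in 8 of 8 libraries (exact two-sided sign-flip permutation test, p = 0.0078). Pol II there covered 4.34% ± 1.58, or 0.810 of the level in the first 50 kb outside, lower in 7 of 7 (same permutation test, p = 0.0156). The blocks that reach so far in are the wide ones, so depth within a block and block width move together.

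**Figure D4:**
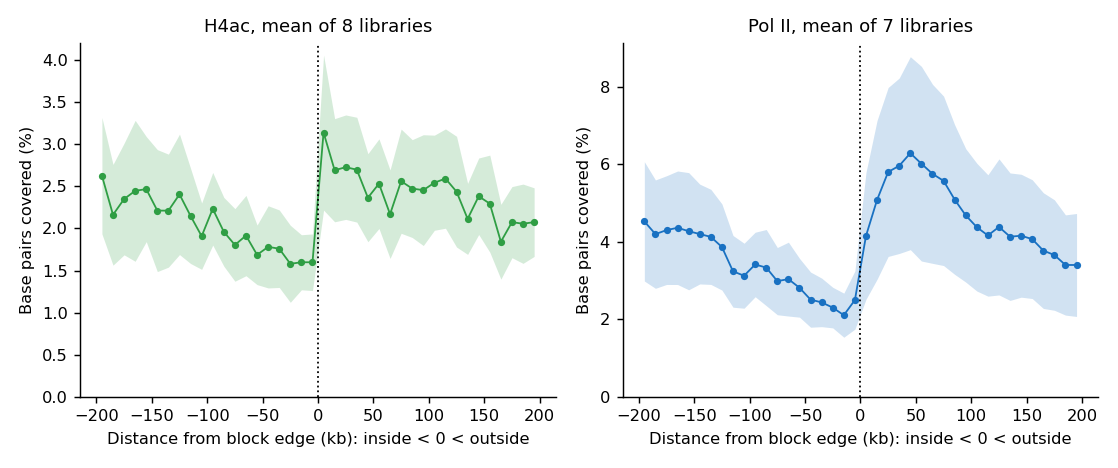
Mean percentage of base pairs covered by H4ac regions (left, 8 libraries) and Pol II regions (right, 7 libraries) in 10 kb steps from 200 kb inside (negative) to 200 kb outside (positive) the block edges, with shading for 1 SD over libraries. H4ac lies at 1.60% just inside and 3.14% just outside, and Pol II at 2.50% and 4.15%.

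Within the blocks, the narrower H3K27me3 regions were where H4ac and Pol II were least. The lists are nested, so regions of up to 100 kb lie within wider ones, and 113.3 Mb of the blocks (15.5%) were also in at least 1 such region. Of all base pairs in narrower regions, 79.7% lay within blocks. H4ac covered 0.956% ± 0.274 of these narrower regions and 2.60% ± 0.65 of the rest of the blocks (SD, n = 8), a ratio of 0.365, lower in 8 of 8 libraries (exact two-sided sign-flip permutation test, p = 0.0078). Pol II covered 1.09% ± 0.30 of the narrower regions and 4.48% ± 1.56 of the rest (SD, n = 7), a ratio of 0.251, lower in 7 of 7 libraries (same permutation test, p = 0.0156). The size rests on the width limits, since with regions of every width the log2 difference was -0.20 for H4ac, against -1.46, and -0.11 for Pol II, against -1.99. In LPS libraries the ratio was 0.327 to 0.456 for H4ac and 0.203 to 0.401 for Pol II, and in unstimulated libraries it was 0.278 and 0.352 for H4ac and 0.153 for Pol II.

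Coverage by H4ac and Pol II also differed with the width of the H3K27me3 region. Relative to the base pairs outside all blocks, regions of 100 to 200 kb had an H4ac ratio of 1.68 ± 0.17, those of 200 to 500 kb 2.48 ± 0.14, those of 500 to 1000 kb 2.89 ± 0.25, those of 1 to 2 Mb 3.33 ± 0.19 and those of 2 to 5 Mb 2.59 ± 0.15 (SD, n = 8). The ratio thus increased with width up to 2 Mb and was lower in the widest class. The classes are not separate sequence, since a base pair can lie in regions of several widths. They covered 152.5, 262.4, 222.9, 256.8 and 232.7 Mb in the same order, together more than the 732.0 Mb of the blocks. Pol II was also highest in regions of 1 to 2 Mb, with ratios over the same 5 classes of 1.12 ± 0.24, 2.10 ± 0.38, 2.52 ± 0.40, 3.15 ± 0.37 and 2.07 ± 0.22 (SD, n = 7). In the narrowest class Pol II was not distinguishable from the genome outside, with 5 of 7 libraries above 1 (exact two-sided sign-flip permutation test, p = 0.328, adjusted 0.328). Regions of 1 to 2 Mb had 2.0-fold the H4ac coverage of regions of 100 to 200 kb in 8 of 8 libraries (same permutation test, p = 0.0078) and 2.86-fold the Pol II coverage in 7 of 7 (exact permutation p = 0.0156).

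**Figure D5:**
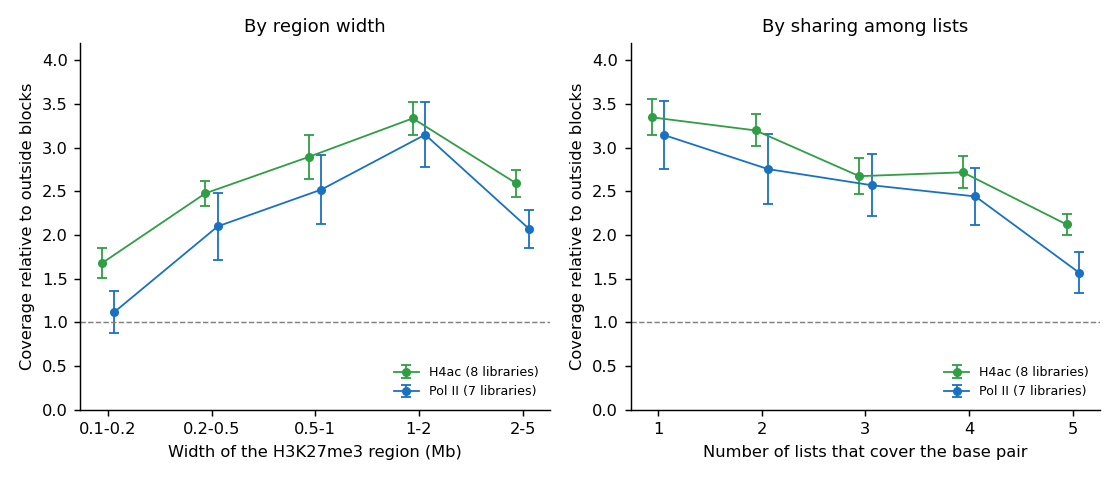
Coverage by H4ac (8 libraries) and Pol II (7 libraries) relative to the genome outside blocks, by the width of the H3K27me3 region (left) and by how many lists cover a base pair (right). Points are means, bars are 1 SD over libraries and the dashed line marks equal coverage. H4ac runs from 1.68 to 3.33 over the first 4 widths, and from 3.35 down to 2.12 from 1 list to 5. A base pair can count in more than 1 width class.

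Base pairs covered by all 5 lists had less H4ac and Pol II than those covered by 1 list. H4ac relative to the genome outside was 3.35 ± 0.21 where exactly 1 list covered, 3.20 ± 0.18 for 2, 2.67 ± 0.21 for 3, 2.72 ± 0.18 for 4 and 2.12 ± 0.12 for all 5 (SD, n = 8). Pol II was 3.14 ± 0.39, 2.75 ± 0.40, 2.57 ± 0.35, 2.44 ± 0.32 and 1.57 ± 0.24 in the same order (SD, n = 7). The libraries' H4ac ratios did not overlap between base pairs of 5 lists, up to 2.30, and of 1 list, from 3.06. Base pairs in all 5 lists stayed above the genome outside in every library, from 1.92 for H4ac and from 1.37 for Pol II. The X made up 30.8 Mb of the 189.8 Mb in all 5 lists and 53.8 Mb of the 732.0 Mb in at least 1. X blocks had less of both marks than autosomal ones, as given below, and these ratios were not computed for the autosomes alone. With the blocks of a single list in place of the joined ones, the mean H4ac ratio was 1.99 for the unstimulated list, 2.31 for 120 min, 2.14 for 240 min, 1.86 for 480 min and 1.71 for the delay list.

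The X chromosome stood apart from the autosomes here as well. X blocks had 1.27% ± 0.36 of their base pairs in H4ac regions, against 2.43% ± 0.61 for autosomal blocks (SD, n = 8), a ratio of 0.519, lower in 8 of 8 libraries (exact two-sided sign-flip permutation test, p = 0.0078). For Pol II the values were 2.29% ± 0.85 on the X and 4.09% ± 1.40 on the autosomes (SD, n = 7), lower on the X in 7 of 7 libraries (same permutation test, p = 0.0156). Outside the blocks the X had still less, so its inside to outside ratio was higher, at 5.32 ± 0.47 for H4ac against 2.76 ± 0.16 on the autosomes, in 8 of 8 libraries (same permutation test, p = 0.0078). On each of the 19 autosomes H4ac was higher inside than outside in all 8 libraries, with ratios of 1.29 to 5.93, and Pol II in all 7 libraries on 18 of them. Chromosome 13 was the exception, where 1 Pol II library had a ratio of 0.991.

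Blocks without any H4ac were few and mostly narrow, and a wider block has more room for a region. Of all 100 kb bins of the genome, 63.4% had no H4ac region and 79.3% no Pol II region. Stretches of the genome as wide as the blocks were not compared. No H4ac list had a region in 85 of the 811 blocks (median width 140.6 kb), no Pol II list had one in 254, and 79 had neither. Of the 210 blocks of 100 to 200 kb, 31.9% had no H4ac and 70.0% had no Pol II, and of the 238 blocks of 200 to 500 kb 7.14% and 38.7%. All 237 blocks of 1 Mb and wider had H4ac in at least 1 list, and 1 of them had no Pol II. H4ac was present in all 8 lists in 540 blocks. The median block had a mean H4ac coverage of 1.47% and a mean Pol II coverage of 1.08%. Across the 811 blocks the mean coverages by the 2 were correlated (Pearson 0.742, Spearman 0.756), a description over blocks that share libraries and differ in width.

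The lists differed in how much of a wide block their regions over 100 kb and up to 5 Mb covered. Each list also had 10 to 14 regions over 5 Mb, which were not counted. Low coverage therefore does not show that a list lacked H3K27me3 there. The 10 widest were all held by 5 lists. The widest, at chr2:24056311-34025670 (mm9, as all coordinates here), spanned 9.97 Mb and 76 regions, and the lists covered 35.8% of it in unstimulated cells, 64.2% at 120 min, 55.2% at 240 min, 63.4% at 480 min and 90.9% in the delay library. Its H4ac coverage was 5.20% and 4.07% in unstimulated cells, 4.05% and 2.16% at 60 min, 3.19% and 2.32% at 120 min, and 4.98% and 2.95% at 240 min, so its lowest value, at 60 min, was well above the genome outside.

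A more uniform block lay at chr15:73210331-78249390, where the 5 lists covered 94.2% to 99.7% of 5.04 Mb, with mean coverages of 3.04% for H4ac and 5.08% for Pol II. At chr7:120724261-126184620, 5.46 Mb wide, the coverage was 99.7% in unstimulated cells, 90.5% at 120 min, 17.2% at 240 min, 90.5% at 480 min and 17.2% in the delay library. This block was also low in both marks, at 1.05% for H4ac and 0.923% for Pol II. At chr14:20453911-25315730, 4.86 Mb wide, the lists covered 100.0% in unstimulated cells, 4.07% at 120 min, 99.9% at 240 min, 93.3% at 480 min and 3.91% in the delay library. Neither block followed the order of time or the date in the titles. Whether regions over 5 Mb covered either block in the lists with low values was not tested.

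The remaining 6 of the 10 widest blocks had mean H4ac coverages of 2.0% to 3.78% and Pol II coverages of 3.83% to 5.82%. In order of width they lay at chr16:91777181-97992080, chr9:59782581-65518570, chr3:141462241-146619210, chr4:115554911-120583870, chr1:36078871-40945400 and chr16:20558611-25413620. The lists differed in the portion they covered at chr3:141462241-146619210, which was 10.2% covered in unstimulated cells, 10.6% at 120 min, 78.1% at 240 min, 93.5% at 480 min and 83.3% in the delay library. The widest X block, at chrX:53548541-58295330 and 4.75 Mb wide, was covered to between 36.6% and 94.9% by the lists. Its H4ac coverage was 0.900% and 0.568% in unstimulated cells, 0.270% and 0.0731% at 60 min, 0.368% and 0.179% at 120 min, and 0.581% and 0.187% at 240 min. Letter by letter, the unstimulated library was the highest of its letter in this block.

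The 5 blocks with the most H4ac were short, from 132.3 to 501.0 kb. The highest mean was 17.2%, at chr2:167351901-167613940, a block made of 1 region of the 480 min list. Its H4ac coverage was 17.8% and 10.2% in unstimulated cells, 21.6% and 16.0% at 60 min, 14.8% and 12.9% at 120 min, and 23.1% and 20.8% at 240 min, with the LPS and unstimulated libraries overlapping. Pol II covered 21.4% of it in unstimulated cells, 34.8% and 34.9% at 60 min, 30.2% at 120 min, 60.8% and 53.4% at 240 min and 12.5% at 360 min.

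The only one of the 5 that all H3K27me3 lists held was at chr19:4095041-4256730, with a mean of 15.3% in H4ac regions, and each list covered at least 91.5% of its 161.7 kb. The others, with means of 14.2%, 13.5% and 13.3%, lay at chr5:92706201-92838520, chr6:82844291-83011230 and chr10:79257821-79758770. They were held by 3, 2 and 2 lists. The mean Pol II coverage of the 5 blocks was 8.52% to 35.4%.

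The 5 widest blocks with no H4ac region were 315.8 to 594.0 kb wide and had no Pol II region either. The widest, at chr6:83957701-84551650, was covered to between 48.0% and 99.9% by the 5 lists. All 5 lists also held those at chr19:25281461-25757520 and chr14:49298521-49620900, the second of which was covered to at least 89.5% by each. The block at chr12:75090601-75406440 was held by 4 lists and had a p50 region in 1 list, p65 in 1 and ATF3 in 2. The other blocks of these 5 had no p50 region. Each had ATF3 regions in 1 or 2 lists, and the blocks on chr6 and chr14 also had p65 regions. The block at chr19:58146321-58510710 came from the 480 min list alone.

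Whether H4ac in the blocks changed with LPS was asked of the 8 H4ac libraries. The share of block base pairs covered was 2.17% ± 0.52 in LPS libraries (n = 6) and 2.87% ± 0.54 in unstimulated libraries (SD, n = 2), a difference of -0.70 percentage points (p = 0.179 by an exact two-sided permutation test, adjusted 0.188). The A libraries had higher coverage than the B libraries at every time, and within a letter each LPS library was below the unstimulated one, at 2.35% to 2.92% against 3.25% for A and at 1.58% to 2.01% against 2.49% for B. Permuted within letters, the difference had the smallest p that this allows (exact, p = 0.0625). Outside the blocks the values were 0.792% ± 0.167 after LPS and 0.963% ± 0.149 without it (same exact test, p = 0.250, adjusted 0.257). The log2 ratio of inside to outside was 1.44 ± 0.07 in LPS libraries and 1.57 ± 0.05 in unstimulated ones, a difference of -0.13 (same exact test, p = 0.0714, adjusted 0.0776, where 6 against 2 libraries allow no p below 0.0357).

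Within a date the order was the same. Among the B libraries, which share a date, the 3 LPS ratios were 2.53 to 2.78, against 2.91 in unstimulated cells. Among the A libraries of another date the LPS ratios were 2.73 and 2.86, against 3.04 in unstimulated cells. The 240 min A library has its own date and a ratio of 2.83. Over the alternatives that used all libraries, the log2 difference was -0.18 to -0.04, with exact permutation p from 0.0357 (blocks of the unstimulated list) to 0.714 (H4ac regions of every width), and it was -0.08 (p = 0.286) with H4ac regions up to 1 kb and -0.08 (p = 0.143) with blocks up to 1 Mb.

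Bin by bin, few places in the blocks changed. The share called higher was slightly smaller than over all bins tested, and the share called lower slightly larger, at each time. All bins tested include those in blocks, so these pairs of shares understate any difference from the other bins. That difference was not tested. Limma was fitted to the H4ac coverage of 6926 bins of 100 kb that had at least 1000 covered bp on average, of which 3515 lay in blocks. The median log2 change at 60, 120 and 240 min was -0.063, -0.095 and -0.065 in the bins in blocks. In the other bins tested it was 0.015, 0.097 and -0.011. At 60 min of LPS, 52 bins in blocks were higher (1.48%, against 1.54% of all bins) and 127 lower (3.61%, against 3.16%), at a limma Benjamini-Hochberg adjusted p under 0.05. At 120 min, 93 were higher (2.65%, against 2.84%) and 201 lower (5.72%, against 4.76%). At 240 min, 58 were higher (1.65%, against 1.93%) and 102 lower (2.90%, against 2.34%). These calls rest on single libraries. Leaving out 1 unstimulated library left a single one in that group and removed most or all calls at each time. Without unstimulated library A the median log2 change at 60, 120 and 240 min was -0.006, -0.003 and -0.053 in bins in blocks. In all bins tested it was 0, 0.040 and -0.020. Without unstimulated library B it was -0.099, -0.146 and -0.093 in bins in blocks and -0.018, -0.008 and -0.023 in all bins tested. Leaving out 60 min library B, or either 240 min library, likewise left a single library at that time and removed the calls there. The median in bins in blocks was then 0 at 60 min, and -0.085 (without A) and -0.056 (without B) at 240 min. For all bins tested the values were 0.005, 0 and -0.035.

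The base pairs that entered or left the H3K27me3 lists with LPS were compared for H4ac as well. H4ac covered 2.34% ± 0.55 of the 24.5 Mb listed in all 4 LPS libraries only and 2.67% ± 0.62 of the 39.5 Mb of the unstimulated list only, in LPS libraries (SD, n = 6). In unstimulated libraries it covered 2.74% ± 0.46 of the base pairs listed after LPS only and 3.84% ± 0.68 of those listed without LPS only (SD, n = 2). The log2 ratio of LPS-only to unstimulated-only base pairs was -0.19 ± 0.01 in LPS libraries and -0.49 ± 0.01 in unstimulated ones. H4ac in LPS libraries thus lay relatively more in base pairs that regions of these widths covered after LPS only. The difference of 0.30 was at the smallest p that 6 against 2 libraries allow (exact two-sided permutation test, p = 0.0357, adjusted 0.0411). Permuted within letters it did not pass (exact, p = 0.0625, the smallest that allows), and with a lower block limit of 200 kb it was 0.10 (exact, p = 0.107).

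In both dates with an unstimulated library the order held, with -0.21 to -0.18 in the 3 LPS libraries against -0.48 in the unstimulated library among the B libraries, and -0.19 and -0.17 in LPS libraries against -0.50 in the unstimulated library among the A libraries of 1 date. The result depended on which H4ac regions were counted, since the difference was 0.056 (exact permutation test, p = 0.786) with regions up to 1 kb and 0.11 (p = 0.214) with regions up to 100 kb. It rests on 1 unstimulated H3K27me3 library with a date of its own. For Pol II the same log2 ratio was -0.04 to 0.88 in 6 LPS libraries and -0.17 in the unstimulated one, which was the lowest of the 7.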

How the data were processed

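Each of the 35 libraries had 1 deposited list of regions (position, scale number and score), with no header line. The score column holds values deposited by the authors and was used here only for ordering and comparing the regions of 1 list. Genome build mm9 comes from the submitters' processing notes. Aligner, region caller and cutoffs are not given in the sources used. The lists hold no read counts, so depth is unknown and a region that is not listed was not read as unbound. The lists are nested in 10 bp steps.

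Regions were joined where they overlapped by at least 1 bp. H4ac, p50, p65 and ATF3 regions up to 10 kb and Pol II regions up to 100 kb were used. Coverage was compared by exact permutation tests over libraries. Bins of 100 kb were compared with limma 3.58.1 in R 4.3.3, on log2 of covered bp scaled to the mean total plus 500 bp. Intervals were computed in Python 3.11.15 with numpy 2.4.6 and pandas 2.3.3, and both were tested on simulated data.

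The blocks named are the 10 widest, the 10 widest held by 5 lists (the same 10), the 5 with the most H4ac, the 5 widest with none and the widest on the X. The members and lists were chosen with earlier results of these data known. Comparisons at block edges, within narrower regions, on the X, by width, and of base pairs listed in 1 condition were chosen after seeing the data. Alternatives were other width limits, the better-scored 50% of each list, bin sizes, leaving out each library and a replicate block.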

Additional observations from a re-analysis of the deposited data

How the results depend on the processing

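H4ac and Pol II inside against outside the blocks kept their direction and passed the test under each alternative tried. So did the edge and narrower-region comparisons of both, and the X and width comparisons of H4ac coverage, under theirs. For Pol II the X and width comparisons had no alternative, and for H4ac they had none with regions of every width. The sizes moved, and with regions of every width the edge and narrower-region differences were -0.20 to -0.11 on the log2 scale, against -1.99 to -0.72. Of 115 values under alternatives that leave out no library, 87 stayed on the same side or within the spread, and no value reversed. The covered total and the sharing follow the definition of a block. With a lower limit of 200 kb the blocks covered 691.6 Mb, 235 were held by 5 lists and the mean Jaccard index was 0.488. With an upper limit of 1 Mb they covered 478.3 Mb with an index of 0.501, and with no upper limit 965.5 Mb. The better-scored 50% of each list gave 464 blocks, 254.9 Mb, 170 held by 5 lists and an index of 0.502. If a list had to cover at least 50% of a block, 183 blocks were held by 5. The lower H4ac log2 ratio after LPS passed with the blocks of the unstimulated list (-0.18, exact permutation p = 0.0357) and with H4ac regions up to 100 kb (-0.15, p = 0.0357), and did not pass under the other alternatives, down to -0.04 (p = 0.714) with H4ac regions of every width.

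The H4ac difference between base pairs listed after LPS only and those of the unstimulated list only no longer passed with H4ac regions up to 1 kb (0.056), up to 100 kb (0.11) or of every width (0.16, exact permutation p = 0.464), with a lower limit of 200 kb (0.10, p = 0.107) or in the better-scored 50% (0.34, p = 0.0714); the cause was not tested. Leaving out 1 library gave 0.29 to 0.31, and without either unstimulated library 6 against 1 cannot pass.

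For bins in blocks, no filter on covered bp gave 261 lower at 60 min, 357 lower at 120 min, and 95 higher and 231 lower at 240 min. With bins of 50 kb, 8970 were tested, of which 4584 lay in blocks. In blocks, 95 were higher and 195 lower at 60 min, against 185 and 335 of all bins tested. At 120 min the counts were 156 and 303, against 321 and 501, and at 240 min 109 and 151, against 223 and 245. These counts are not directly comparable with the main fit, which tested 6926 bins, 3515 of them in blocks. Leaving out 1 library at a time gave 0 to 56 higher and 0 to 156 lower at 60 min, 0 to 103 and 0 to 262 at 120 min, and 0 to 70 and 0 to 133 at 240 min by limma. Without scaling, the median of all bins was -0.38 log2 at 60 and 120 min and -0.18 at 240 min.

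The letters follow the dates in the titles except for the 240 min A library, and deviations of libraries with the same letter correlated at 0.07 to 0.25 between times. With the letter as a replicate block, the log2 ratio difference was -0.13 (exact permutation p = 0.0625, the smallest that 16 arrangements allow), and that of base pairs listed in 1 condition was 0.30 (p = 0.0625). The block changed no count of bins by over 1.5 times.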
